A study of Rattus norvegicus with 2 samples.

Results

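The vesicle exocytosis and endocytosis machinery was followed on an expression array of rat carotid body cells kept at 21% or 1% oxygen. Its members were the 28 of 1185 genes on the array whose deposited names contained amphiphysin, dynamin, clathrin, synaptotagmin, syntaxin, synaptobrevin, VAMP, SNAP-25, synaptosomal, synaptophysin, synapsin, synaptic vesicle, complexin, rab3 or rab-3. No gene name on the array contained dynamin, clathrin or complexin. The 28 genes comprised 2 vesicle SNAREs, 8 SNAREs of the target membrane, 5 regulators of SNAREs and docking, 5 synaptotagmins, 6 vesicle membrane proteins and 2 endocytic proteins.

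The cells were primary cultures from Sprague Dawley rats, with 16 carotid bodies pooled per culture, and the age of the rats is not given. All cultures were grown on poly-L-lysine in Ham's F-12 medium with horse serum, fetal bovine serum and nerve growth factor. The normoxia group was held at 21% oxygen, and the chronic hypoxia group at 1% oxygen in a chamber flushed with nitrogen and carbon dioxide. Both were cultured for 7 days. Each group had 3 nylon membranes, hybridised with radiolabelled cDNA from amplified RNA. The labels do not say whether the membranes of a group came from separate cultures, so the p-values rest on a spread between membranes that may be technical.

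The carotid body senses arterial oxygen. Its glomus cells release catecholamines, acetylcholine, ATP and peptides onto sensory nerve endings by calcium-triggered exocytosis. In that process a vesicle SNARE (synaptobrevin) zips together with SNAREs of the plasma membrane (syntaxin and SNAP-25), Munc18 proteins and Rab3 with its effector RIM prepare the vesicle, and calcium-binding synaptotagmins trigger fusion. The vesicle membrane is then retrieved by endocytosis, for which amphiphysins bend the membrane and recruit dynamin and clathrin.

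Background was high and uneven between membranes. The lowest intensity lay between 309 and 412 on 5 membranes and at 14591 on chronic hypoxia membrane 3. The background limit of a membrane was set at its median intensity plus 3 times the spread of its below-median values. In normoxia the limits were 4561 (membrane 1), 6300 (membrane 2) and 5458 (membrane 3). In chronic hypoxia they were 3261, 6406 and 19280, in the same order of membranes. Between 72 and 205 genes passed them on a membrane. The deposited values lay on steps that differed between membranes. The step was 51.5 on the first membrane of each group, and 103 on normoxia membranes 2 and 3 and chronic hypoxia membrane 2. No such step was found on chronic hypoxia membrane 3. Membranes that share a step are called a scan format here, which was inferred from the values and not taken from the labels. Chronic hypoxia membranes 1 and 3 stood apart as the most alike pair, with a rank correlation across genes of 0.772 against 0.267 to 0.580 for the other 14 pairs. Chronic hypoxia membrane 2 was the least like the rest, with correlations of 0.267 to 0.325. Pairs without it were at 0.402 or more.

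Detection of the machinery was close to that of the array as a whole. On no membrane did 21 of the 28 genes (75.0%) pass the background limit, beside 73.2% of all 1185 genes. Synaptotagmin XI was above background on all 6 membranes, amphiphysin II on 5, and the syntaxin-binding protein Munc18-2 on 4. RIM and synaptotagmin V passed on 2 normoxia membranes each, and SNAP-25 and syntaxin 5 on 1 normoxia membrane each. All 7 detected genes were thus above background in normoxia and 3 of them in chronic hypoxia, beside 266 (22.4%) and 209 (17.6%) of all 1185 genes. Normoxia membranes 1 to 3 had 3, 6 and 5 members above background, against 3, 1 and 3 for chronic hypoxia, so the groups overlapped. Of all genes, 13.6%, 11.7% and 17.3% passed the limit on the normoxia membranes, against 13.9%, 6.1% and 15.7% in chronic hypoxia, with chronic hypoxia membrane 2 the lowest for members and for all genes. In bulk cultures, fewer cells of a type and less RNA per cell cannot be told apart.

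**Figure D1:**
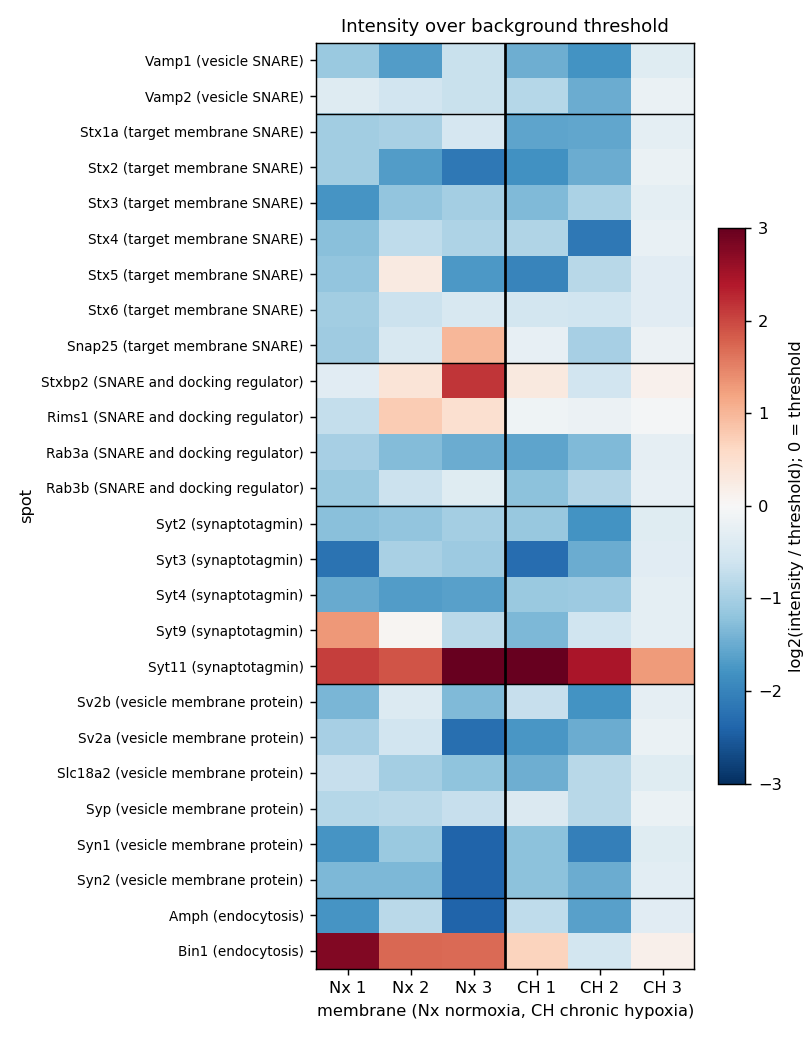
Intensity of 26 of the 28 genes on each of the 6 membranes, as log2 of its ratio to that membrane's background limit, with genes grouped by role. Values above 0 are above background: synaptotagmin XI lies above on all 6 membranes, and amphiphysin II on 5, with chronic hypoxia membrane 2 below.

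No member passed the test of chronic hypoxia against normoxia. Of the 1038 genes that passed a filter on dim spots, 19 were members, and 0 of these had a limma adjusted p under 0.05 (Benjamini-Hochberg over the 1038 genes), as did 0% of all genes tested. At an unadjusted limma p under 0.05, 2 members had a lower mean in chronic hypoxia, amphiphysin II and synaptotagmin V, and none a higher mean. Among all genes tested, 4.14% were below that unadjusted limit with a lower mean. For 3 of the 19 tested members the groups were without overlap: amphiphysin II, syntaxin 1A and synaptobrevin 2, all lower in chronic hypoxia. Among all genes tested, 7.42% did not overlap and were lower and 6.45% did not overlap and were higher.

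Amphiphysin II (Bin1) showed the largest difference among the 19 tested genes. The gene encodes a BAR-domain protein that curves membranes in endocytosis and T-tubule formation. In normoxia its spot read 31206, 20639 and 17620 (membranes 1 to 3, the order used throughout), against 5177, 4339 and 21415 in chronic hypoxia. Divided by each membrane's background limit, these were 6.84, 3.28 and 3.23 in normoxia and 1.59, 0.677 and 1.11 in chronic hypoxia. All 3 normoxia membranes were thus at least 3.23 times the limit, and chronic hypoxia membrane 2 was below it. After background correction and quantile normalization, the log2 intensities were 14.46, 14.83 and 13.05 in normoxia and 12.63, 11.36 and 12.26 in chronic hypoxia, with no overlap between the groups.

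The mean log2 intensity of amphiphysin II was 14.11 ± 0.94 in normoxia against 12.08 ± 0.65 in chronic hypoxia (SD, n = 3 each). The log2 difference was -2.03 (SE 0.66, 95% interval -3.48 to -0.57), a 4.08-fold lower mean with an interval of 1.49-fold to 11.2-fold. The unadjusted limma p was 0.011 and the limma adjusted p 0.645, so it did not pass. The two-sided exact permutation p was 0.1, the smallest that 3 membranes against 3 allow. Within the scan formats that hold both groups, the difference was -1.83 between the first membranes and -2.58 among the membranes with a step of 103. Because the groups did not overlap, both signs were fixed in advance and add no support. Without background correction the amphiphysin II difference over all membranes was -1.62, so the size of the fold depends on that correction. The other amphiphysin on the array (Amph), the neuronal form that binds dynamin and clathrin adaptors, was above background on no membrane and did not pass the filter.

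The promoters of amphiphysin II and synaptotagmin XI are shown because these were the members above background on the most membranes, and because hypoxia-inducible factors bind promoters with the core ACGTG or GCGTG. Both are RefSeq sequence of assembly GRCr8, from 250 bases before to 50 bases after the annotated start. The window of Bin1 is chr18:24283701-24284000 on the plus strand, and that of Syt11 is chr2:176529726-176530025 on the minus strand, each read 5′ to 3′ along the gene. Capitals mark a match to either core on either strand; CACGC is GCGTG read on the other strand.
Bin1: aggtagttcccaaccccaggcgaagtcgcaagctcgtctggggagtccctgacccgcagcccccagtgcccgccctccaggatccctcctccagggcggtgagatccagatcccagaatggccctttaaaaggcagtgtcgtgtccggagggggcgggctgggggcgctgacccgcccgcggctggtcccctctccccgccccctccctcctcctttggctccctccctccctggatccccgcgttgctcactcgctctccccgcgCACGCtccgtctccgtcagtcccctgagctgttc
Syt11: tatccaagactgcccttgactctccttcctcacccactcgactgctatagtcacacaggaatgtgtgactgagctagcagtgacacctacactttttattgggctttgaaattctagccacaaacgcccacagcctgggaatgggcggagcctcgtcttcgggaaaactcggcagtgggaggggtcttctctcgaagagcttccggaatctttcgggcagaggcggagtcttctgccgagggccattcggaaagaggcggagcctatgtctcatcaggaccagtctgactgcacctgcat
The Bin1 window held 1 match and the Syt11 window 0, and their GC content was 69.3% and 54.7%. A promoter was listed for 25 of the 28 members, and 18 of these (72.0%) held a match, against 13937 of 33469 promoters of the same length in the rat table (41.6%). The members' promoters were also richer in GC, with a median of 66.0% against 51.7%. A match describes letters in the window and not a bound site, and the part of base composition in the difference was not tested.

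Synaptotagmin XI (Syt11) was the one member above background everywhere. Unlike the calcium sensors of its family, it does not bind calcium and is known as a brake on membrane retrieval. Its spot read 19360, 23439 and 65147 in normoxia, against 27301, 34815 and 47095 in chronic hypoxia, with normoxia membrane 3 within 5% of the ceiling of 65535. The normalized log2 intensities were 13.86, 15.15 and 15.58 in normoxia and 14.67, 15.31 and 14.99 in chronic hypoxia. The groups overlapped, and the 3 chronic hypoxia membranes lay inside the range of the normoxia membranes. The means were 14.86 ± 0.90 and 14.99 ± 0.32 (SD, n = 3 each), a log2 difference of 0.13 (SE 0.62, 95% interval -1.24 to 1.49, limma adjusted p 0.972). That interval spans both a lower and a higher mean by more than 2-fold.

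The spot named synaptotagmin V is called Syt9 here, after the RefSeq symbol that lists the older name as a synonym. The name has also been used for Syt5, so which gene the spot measures is uncertain. Both are calcium-binding members of the family. Its intensity was 11257, 6512 and 3097 in normoxia and 1290, 4233 and 15683 in chronic hypoxia. It was above the background limit on normoxia membranes 1 and 2 alone. The normalized log2 intensities of 13.23, 12.31 and 10.79 in normoxia overlapped those of 9.72, 11.26 and 9.84 in chronic hypoxia. The log2 difference was -1.84 (SE 0.74), with a limma adjusted p of 0.645 and an exact permutation p of 0.2. Between the first membranes of the groups the value was -3.51, and among those with a step of 103 it was -0.29. Without background correction the difference was -1.07. Because the chronic hypoxia values were at background, no fold is given.

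The other synaptotagmins on the array were not detected. Synaptotagmin II (Syt2), a fast calcium sensor of synapses, had a log2 difference of -1.04 (SE 0.64, limma adjusted p 0.690), with opposite signs in the scan formats (0.37 and -1.76). Synaptotagmins III and IV (Syt3 and Syt4) did not pass the filter. For Syt4, an activity-induced vesicle protein, normalized log2 values were 9.18, 8.52 and 9.35 in normoxia and 10.18, 10.05 and 9.84 in chronic hypoxia. These groups did not overlap, but all 6 values lay below the background limit of their membrane.

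**Figure D2:**
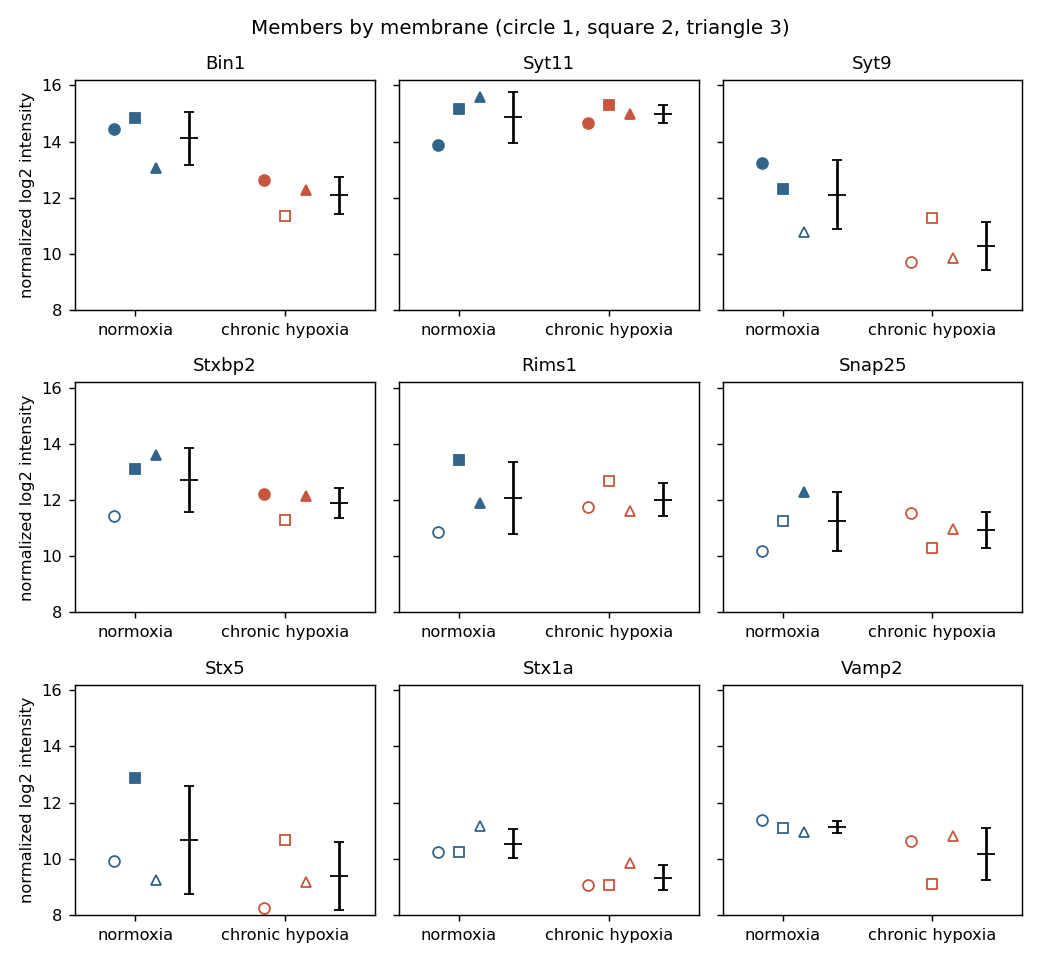
Normalized log2 intensity on each membrane for the 7 genes above background on at least 1 membrane and for Stx1a and Vamp2, with group means and SD as bars (n = 3 each) and the membranes marked by circles, squares and triangles. Filled points are above background; the 3 amphiphysin II values of chronic hypoxia (11.36 to 12.63) lie below the 3 of normoxia (13.05 to 14.83), while synaptotagmin XI overlaps.

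The core SNAREs of release gave little signal. Synaptobrevin 2 (Vamp2), the main vesicle SNARE of regulated secretion, had normalized log2 values of 11.38, 11.08 and 10.97 in normoxia and 10.64, 9.11 and 10.80 in chronic hypoxia. The groups did not overlap, and the log2 difference was -0.96 (SE 0.62, limma adjusted p 0.723, exact permutation p 0.1). Syntaxin 1A (Stx1a), its plasma membrane partner, had values of 10.24, 10.24 and 11.15 in normoxia and 9.08, 9.08 and 9.84 in chronic hypoxia. These also did not overlap, with a log2 difference of -1.21 (SE 0.57, limma adjusted p 0.645, exact permutation p 0.1). Neither gene was above background on any membrane, so these are differences among background-level spots. Without background correction they were -0.45 for Vamp2 and -0.51 for Stx1a. Within the scan formats the differences were -0.74 and -1.91 for Vamp2 and -1.16 and -1.62 for Stx1a. Their negative signs follow from the lack of overlap and add no support. Synaptobrevin 1 (Vamp1), the other vesicle SNARE, did not pass the filter.

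SNAP-25 (Snap25), which contributes a pair of helices to the fusion complex, had intensities of 2168, 4542 and 10970 in normoxia and 2736, 3197 and 17055 in chronic hypoxia. It was above background on normoxia membrane 3 alone. The normalized log2 values of 10.18, 11.27 and 12.29 and of 11.55, 10.29 and 10.97 overlapped, and the log2 difference was -0.31 (SE 0.68, limma adjusted p 0.923). Its sign differed between the scan formats, at 1.37 and -1.49.

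Syntaxin 5 (Stx5), a SNARE of transport between the endoplasmic reticulum and the Golgi, had intensities of 2010, 7542 and 1651 in normoxia and 824, 3606 and 15319 in chronic hypoxia. It was above background on normoxia membrane 2 alone. Its log2 values of 9.91, 12.86 and 9.25 in normoxia and 8.26, 10.67 and 9.18 in chronic hypoxia overlapped, with a difference of -1.31 (SE 0.96, limma adjusted p 0.764). The spread of the normoxia membranes (SD 1.92) was larger than the difference.

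Of the other syntaxins, syntaxin 3 (Stx3), found on apical and granule-bearing membranes, had the smallest limma p among the 3 tested members with a higher mean in chronic hypoxia. Its log2 values were 8.42, 9.81 and 10.51 in normoxia and 9.72, 10.37 and 10.02 in chronic hypoxia. The groups overlapped, with a log2 difference of 0.45 (SE 0.65, 95% interval -0.99 to 1.90, limma adjusted p 0.863). Syntaxin 4 (Stx4), a plasma membrane SNARE of constitutive and insulin-regulated delivery, had a log2 difference of -0.78 (SE 0.80, limma adjusted p 0.832). Syntaxin 6 (Stx6), a SNARE of the trans-Golgi network and endosomes, had one of -0.28 (SE 0.68, limma adjusted p 0.934). Syntaxin 2 (Stx2) did not pass the filter. Of the 7 target membrane SNAREs tested, 6 had a lower mean and 1 a higher mean in chronic hypoxia, with a median difference of -0.53.

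Among the regulators, Munc18-2 (Stxbp2), a syntaxin chaperone of granule release outside neurons, was above background on 2 membranes of each group. Its intensity was 3616, 8276 and 24144 in normoxia and 3981, 4327 and 21003 in chronic hypoxia. Its log2 values of 11.44, 13.11 and 13.60 in normoxia and 12.23, 11.30 and 12.16 in chronic hypoxia overlapped. The log2 difference was -0.82 (SE 0.68, 95% interval -2.33 to 0.69, limma adjusted p 0.779), with 0.79 between the first membranes and -2.06 among those with a step of 103.

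RIM (Rims1), the active-zone scaffold that binds Rab3 and calcium channels, had intensities of 2784, 10749 and 7649 in normoxia and 2998, 5669 and 18615 in chronic hypoxia. It passed the background limit on normoxia membranes 2 and 3. The log2 values of 10.87, 13.43 and 11.89 and of 11.76, 12.68 and 11.60 overlapped, and the difference was -0.05 (SE 0.72, limma adjusted p 0.996), with values above 0 within both scan formats (0.89 and 0.02). Rab3b, a secretory Rab of endocrine cells, had a log2 difference of -0.47 (SE 0.58, limma adjusted p 0.863) at background level. Rab3a, the main Rab of synaptic vesicles, did not pass the filter.

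The vesicle membrane proteins were all at background. Synaptophysin (Syp), a commonly used marker of glomus cell vesicles, had log2 values of 10.62, 10.67 and 10.96 in normoxia and 11.29, 10.71 and 10.74 in chronic hypoxia. The groups overlapped, with a log2 difference of 0.16 (SE 0.53, limma adjusted p 0.942). The vesicular amine transporter 2 (Slc18a2), which loads catecholamines into granules, had a difference of -0.82 (SE 0.64, limma adjusted p 0.764), and its sign differed between the scan formats (-1.57 and 0.49). The vesicle glycoproteins SV2 (Sv2a) and SV2B (Sv2b), which bind synaptotagmin, had differences of -0.37 and -0.44. The synapsins (Syn1 and Syn2), which tether vesicles to actin, did not pass the filter.

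As a group, 16 of the 19 tested members (84.2%) had a lower mean in chronic hypoxia, against 500 of all 1038 genes tested (48.2%). Their median log2 difference was -0.53, ranging from -2.03 to 0.45, against a median of 0.03 over all genes tested, whose 5th to 95th percentiles were -1.43 to 1.36. The median was -0.84 without normoxia membrane 1 and -0.33 without normoxia membrane 2. These counts are a description and carry no test, and a member that was high in 1 group alone could pass the filter through that group. Of the 16, 10 belonged to the 12 tested members above background on no membrane. Without the filter, 21 of the 28 genes (75.0%) had a lower mean with a median of -0.40, against 48.9% and 0.02 of all 1185 genes.

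The lower median was not seen in both scan formats. Between the first membranes of the groups, 8 of the 19 (42.1%) were lower and the median was 0.37, against 47.5% and 0.05 of all genes tested. Among the membranes with a step of 103, 15 (78.9%) were lower and the median was -0.53, against 48.7% and 0.01. The chronic hypoxia side of that contrast was membrane 2 alone, the membrane least like the rest. In the fit to all membranes but chronic hypoxia membrane 2, the median over the tested members was -0.44. Amphiphysin II, synaptotagmin V, syntaxin 1A, syntaxin 5, synaptobrevin 2, Rab3b and SV2 were lower in both formats. These are 7 of the 19 (36.8%), against 24.1% of all genes tested. For amphiphysin II, syntaxin 1A and synaptobrevin 2, the sign in both formats follows from groups that did not overlap. Syntaxin 3, syntaxin 6 and RIM were higher in both.

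**Figure D3:**
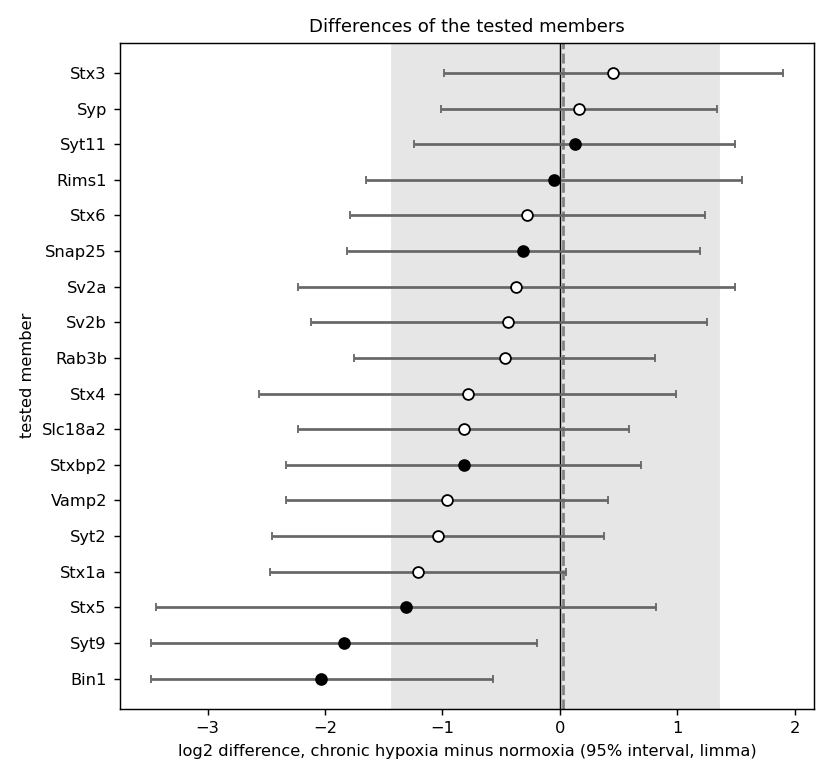
Log2 difference, chronic hypoxia minus normoxia, of 18 of the 19 tested genes with 95% intervals from limma (n = 3 membranes per group); filled points are genes above background on at least 1 membrane, the dashed line is the median of all genes tested (0.03) and the grey band their 5th to 95th percentiles. The intervals of amphiphysin II (-3.48 to -0.57) and synaptotagmin V (-3.48 to -0.19) lie below 0 before adjustment, and the other 16 intervals include 0.

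**Figure D4:**
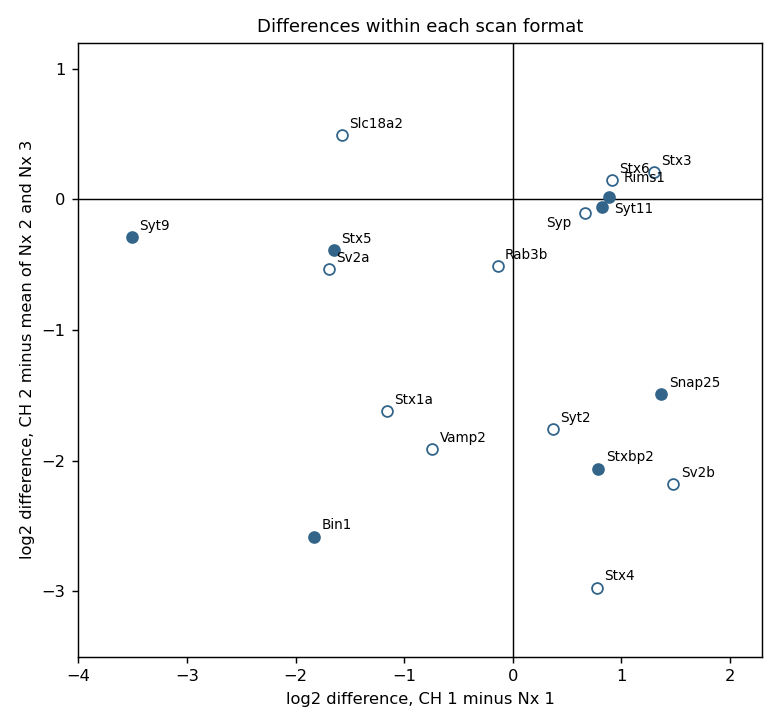
Log2 difference of 18 of the 19 tested genes between the first membranes of the groups (horizontal axis) and among normoxia membranes 2 and 3 and chronic hypoxia membrane 2 (vertical axis), filled where the gene was above background on at least 1 membrane. Genes at the lower left (7 of 18) were lower in both formats, and 8 of 18 lie left of 0 against 14 of 18 below 0.

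The members sat in a few runs of spots, with 9 of the 28 in B13, 6 in C01 and 6 in B14, and the 7 detected ones fell in the first pair of these runs. By position code, synaptotagmin V, synaptotagmin XI, RIM and amphiphysin II occupied B13b, B13d, B13e and B13g, and syntaxin 5, Munc18-2 and SNAP-25 occupied C01a, C01g and C01h. Other spots beside them were bright as well. Annexin I at B13c was above background on all 6 membranes, and intrinsic factor at B13h, next to amphiphysin II, on 5. Intrinsic factor had intensities of 9017, 10361 and 58413 in normoxia and 28626, 4030 and 33959 in chronic hypoxia, and was brighter than amphiphysin II on 3 membranes.

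For 3 of the 7, SNAP-25, Munc18-2 and RIM, a neighbouring spot was brighter on all 6 membranes. For RIM this was synaptotagmin XI, and for SNAP-25 both Munc18-2 and long chain acyl-CoA synthetase 2. Munc18-2 itself lay beside a fructose-bisphosphate aldolase spot with intensities of 10988, 18041 and 65535 in normoxia and 11460, 14695 and 55260 in chronic hypoxia. Synaptotagmin XI was brighter than its neighbours on every membrane. The part of neighbouring spots in these intensities was not tested.

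**Figure D5:**
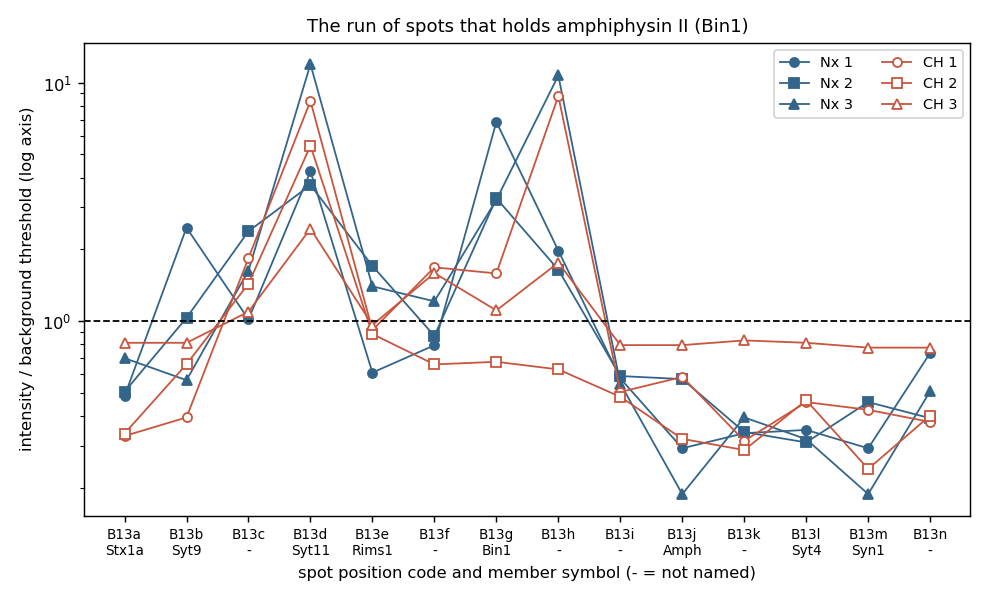
Intensity along the run of spots that holds synaptotagmin V, synaptotagmin XI, RIM and amphiphysin II, as a multiple of each membrane's background limit (vertical axis, log scale), by position code (horizontal axis). Amphiphysin II at B13g reaches 3.23 to 6.84 times the limit in normoxia and 0.677 to 1.59 times in chronic hypoxia, and the spots beside it are above the limit on several membranes.

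A pair of relatives fell outside the name rule through spelling. Cellubrevin, the ubiquitous vesicle SNARE also called VAMP3, had intensities of 2430, 6000 and 12853 in normoxia and 928, 3821 and 16047 in chronic hypoxia, and was above background on normoxia membrane 3 alone. Its log2 difference was -1.82 (SE 0.77, unadjusted limma p 0.0388, limma adjusted p 0.645). It was -2.02 and -1.40 within the scan formats. The spot spelled synaptotagamin I, for the calcium sensor of fast release, was above background on no membrane and did not pass the filter. Its normalized log2 values were 8.42, 8.66 and 7.79 in normoxia and 10.74, 11.85 and 9.18 in chronic hypoxia. These groups did not overlap and were higher in chronic hypoxia, but every value lay below the background limit of its membrane.

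No gene of the neighbouring pathway lists passed the test. Of 22 tested small GTPases of vesicle traffic and their regulators, 14 had a lower and 8 a higher mean at 1% oxygen, and their log2 differences had a median of -0.20. Among them, Rab GDI beta, which extracts Rab proteins from membranes, was above background on all 6 membranes. Its intensity was 33530, 7861 and 12803 in normoxia and 34356, 30451 and 35887 in chronic hypoxia, and its log2 difference was 1.32 (SE 0.70, limma adjusted p 0.645).

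Of 5 tested voltage-gated calcium channel subunits, 2 were lower and 3 higher with a median of 0.49, and none of the 8 on the array was above background. Of 9 tested granule cargo genes, 4 were lower and 5 higher with a median of 0.21. The prohormone-processing enzyme carboxypeptidase E was above background on all 6 membranes, with a log2 difference of -0.33 (SE 0.58, limma adjusted p 0.893). Of 3 tested neurexins and related genes, 1 was lower and 2 higher, with a median of 0.96 at background level. Both further transporters that load vesicles had lower means. Of these, the vesicular acetylcholine transporter was above background on 3 membranes, with a difference of -0.09 (SE 0.67, limma adjusted p 0.991). No gene name on the array matched the list of coat adaptors.

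The cell type label was checked against marker genes. The array carried 6 genes of the glomus cell list, and 3 of them passed the background limit on 3 or more membranes: the dopamine transporter, dopamine beta-hydroxylase and carboxypeptidase E. Of all 1185 genes, 12.8% passed the limit on 3 or more membranes. DOPA decarboxylase, chromogranin A and the vesicular amine transporter 2, which is also a vesicle gene, passed it on none. The summed normalized level of the 6 was 89131 to 104794 in normoxia and 106456 to 111107 in chronic hypoxia. That of the 28 vesicle genes was 75650 to 129231 in normoxia and 68410 to 74696 in chronic hypoxia. Neither pair of sums overlapped, but each rested on a few bright genes. Of the 6 glomus genes, 4 had a lower mean in chronic hypoxia (median log2 difference -0.23), and dopamine beta-hydroxylase had the highest difference at 1.08 (SE 0.55, limma adjusted p 0.645). Dopamine beta-hydroxylase was above background on all 6 membranes. Its log2 values of 14.59, 14.47 and 13.80 in normoxia lay below those of 15.36, 15.11 and 15.65 in chronic hypoxia, without overlap. Among all genes tested, 6.45% did not overlap and were higher. Without amphiphysin II the vesicle sum was 53172 to 100036 in normoxia and 62093 to 72064 in chronic hypoxia, and the groups overlapped.

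The summed levels of the markers of other cells overlapped between the groups. Single markers did not overlap: myelin proteolipid protein (-1.15) and the interleukin 8 receptor (-1.02) were lower and CD2 (1.68) was higher in chronic hypoxia by log2 difference. None of the 3 passed the test. Myelin proteolipid protein was above background on normoxia membrane 2 alone (6406), and the interleukin 8 receptor and CD2 on no membrane. Among all genes tested, 7.42% did not overlap and were lower and 6.45% did not overlap and were higher. Markers that passed the limit on 3 or more membranes numbered 0 of 5 for glia, 0 of 3 for sympathetic neurons, 0 of 9 for fibroblasts and matrix and 0 of 14 for immune cells. They numbered 1 of 3 for endothelium (endothelial nitric oxide synthase) and 1 of 2 for the smooth muscle list (acidic calponin), which held spots chosen by the name calponin. The other spot of the smooth muscle list, named calponin, passed it on no membrane. The share over all 1185 genes was 12.8%, so counts of 0 or 1 in lists this short do not show that a cell type was absent. The endothelial sum was 53339 to 60930 in normoxia and 55241 to 63223 in chronic hypoxia, and the smooth muscle sum 1630 to 15602 and 11035 to 16907. The smooth muscle sum rested mainly on acidic calponin, and whether that spot reports smooth muscle was not tested. The endothelial sum rested mainly on endothelial nitric oxide synthase, which read 61083, 34690 and 65535 in normoxia and 65499, 64139 and 64448 in chronic hypoxia. Most of these lay near the ceiling of 65535, so the overlap of the endothelial sums is not informative. The glial sum was 5446 to 9937 and 5351 to 13789, the sympathetic sum 3489 to 8519 and 4743 to 6010, the fibroblast sum 17345 to 27974 and 21273 to 22308, and the immune sum 14406 to 27750 and 17532 to 35063. The part of cell composition in the vesicle gene values was not tested.

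The authors' deposited table, which holds 1 averaged intensity per gene and condition, listed 6 of the 28 members above 0 and 22 (78.6%) at 0 in both conditions, against 72.7% of all genes at 0 in both. In the authors' deposited table, amphiphysin II had 22372 in normoxia and was listed at 0 in chronic hypoxia. Synaptotagmin XI had 30578 and 40614 in the authors' deposited table, a ratio of 1.33. RIM (6457), synaptotagmin V (3363) and SNAP-25 (2423) were listed in normoxia alone in the authors' deposited table. Munc18-2, which the authors' deposited table lists at 0 for either condition, was above background on 4 membranes. The value of 0 for amphiphysin II in chronic hypoxia stood beside membrane intensities above the background limit on 2 of the 3 chronic hypoxia membranes.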

How the data were processed

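The deposited intensity values are 1 linear brightness per gene and membrane, read from Atlas Rat 1.2 nylon arrays with a phosphorimager and AtlasImage V2.0, per the labels' protocols. They include background and are not normalized between membranes. The authors also deposited a table of averaged intensity per condition; how background was removed for it is not given in the sources used here.

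Intensities were background-corrected with normexp (offset 50), log2 transformed and quantile normalized over the 6 membranes in limma 3.58.1 (R 4.3.3). Genes above a membrane's 25th percentile on at least 3 membranes were tested (1038 of 1185), with lmFit, eBayes and Benjamini-Hochberg adjustment over those genes. The fit was also run on simulated data with independent noise on each membrane. That simulation lacks the uneven background and the likeness between membranes seen here, so it cannot vouch for the fit on these data. Many tested spots are at background, and the size of their differences depends on the background correction. The number of arrays limits the precision. A fold is given only where both groups have membranes above background; bounds for genes detected in 1 group were under 1 and are left out. Exact permutation tests used all 20 assignments of membranes to groups and were two-sided. Values were also computed under other background corrections, normalizations, filters and models, without each membrane, and within scan formats; a value belongs to a format by its step, within a tolerance of 8.

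Members, gene lists, markers and tests were chosen with earlier results of these data known. Values per membrane are given for members above background on any membrane, for the 3 with the smallest p in each direction, and for Vamp2 and Syt4, added because their groups did not overlap. Symbols were assigned to all 28 deposited names and found in the RefSeq table of GRCr8. Values of 2 members are not reported here. Array probe sequences and genome positions were not used here. Python 3.11.15, numpy 2.4.6, pandas 2.3.3 and matplotlib 3.10.9 were used for the rest.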

Additional observations from a re-analysis of the deposited data

How the results depend on the processing

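No member was called at an adjusted p under 0.05 by limma under any alternative fitted; 2 members and 75 of 1038 genes had an unadjusted p under 0.05. The lowest adjusted p of a member under any alternative was 0.216 for synaptotagmin V, and amphiphysin II ranged from 0.264 to 0.889. Amphiphysin II, Rab3b, syntaxin 1A, syntaxin 5, synaptotagmin V and synaptobrevin 2 kept a negative difference under every alternative run. For amphiphysin II, syntaxin 1A and synaptobrevin 2 the groups did not overlap. Their sign was thus all but fixed when a membrane was left out and within the formats, and adds no support. The amphiphysin II difference ranged from -2.58 to -1.57, and from -2.52 to -1.74 when a membrane was left out. The median over the tested members ranged from -0.84 to -0.33 when a membrane was left out, and was -0.74 without normalization, where the median of all genes shifted by -0.17, and -0.50 without amphiphysin II. It was 0.37 within the step of 51.5.

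The following changed sign, and the cause was not tested. Within the step of 51.5, differences were 0.78 for Stx4, 0.91 for Stx6, 1.37 for Snap25, 0.79 for Stxbp2, 0.89 for Rims1, 0.37 for Syt2 and 1.48 for Sv2b. Within the step of 103, they were 0.15 for Stx6, 0.018 for Rims1, -0.058 for Syt11, 0.49 for Slc18a2 and -0.10 for Syp. With the scan format as a block, Stx6 was 0.48 and Rims1 0.39. With array weights, Syt11 was -0.10, Sv2b 0.15 and Sv2a 0.051. Syp was -0.034 without normalization, and Rims1 0.12 with chronic hypoxia membranes 1 and 3 averaged. When a membrane was left out, ranges crossed 0 for Rims1 (-0.64 to 0.65), Snap25 (-0.86 to 0.21), Stx3 (-0.12 to 0.91), Stx4 (-1.26 to 0.16), Stx6 (-0.63 to 0.38), Sv2a (-1.19 to 0.24), Sv2b (-0.99 to 0.23), Syp (-0.026 to 0.28) and Syt11 (-0.39 to 0.49).

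Membranes of the same number did not deviate together beyond 0.1 in every pair (correlations of 0.091, 0.114 and 0.023), so the numbers were not taken as a pairing. With the replicate number as a block, the amphiphysin II difference was -2.03, the median -0.53 and 0 members were called. The scan-format values and the changes to the member list were chosen after seeing the data. At these backgrounds, differences of the 21 members never above background are not detectable as expression.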
